A study of Homo sapiens with 55 samples.

Results

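Mutually exclusive exons are pairs of neighbouring exons of which a transcript carries one or the other. The members here were all splicing events that the deposited tables list as mutually exclusive exons, 6720 of 110816 events with coordinates, beside 48170 skipped-exon and 33845 alternative 3' splice site events. Each value is the usage of the upstream exon, that is the share of the pair's signal that came from the upstream exon, in percent. It does not cover the transcripts that skip both exons. A transcript that holds both exons uses the upstream junction too. Whether such transcripts were kept out of the values is not given in the sources used here. The exon order was checked against annotation: where GENCODE 29 knew only the upstream junction, median usage was 59.6% (525 members), and where it knew only the downstream junction, 14.6% (243 members).

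The study asked how deleting GPATCH8 changes RNA splicing. K562 is an erythroleukaemia cell line and 293T a human embryonic kidney line. 4 panels were sequenced as polyadenylated RNA, which gave 44 libraries from 55 samples. In the SF3B1 panel, K562 cells without (WT) or with a knocked-in SF3B1 K700E mutation carried the control guide sgRenilla (1 library each), sgGPATCH8 (2 each) or sgSUGP1 (2 each), with 2 sequencing runs a library averaged. In the SRSF2 panel, K562 cells overexpressed SRSF2 WT or P95H and carried sgRenilla or sgGPATCH8 (3 libraries each), so its WT controls carry a transgene too. The U2AF1 panel has the same layout with overexpressed U2AF1 WT or S34F (3 libraries each). The 293T panel held 2 sgRenilla, 4 sgGPATCH8 and 4 sgSUGP1 libraries, with guides 16 and 17 against GPATCH8 and guides 3 and 4 against SUGP1. The 293T labels use the names WT-1 and WT-2, and sgRenilla occurs under WT-1 only. If these are different cells, WT-2 had no control of its own. Nothing says that replicates came from separate cultures, so p-values measure the spread between these samples, which may be technical. In the SF3B1 panel the 2 libraries of a target carried guides 16 and 17 (GPATCH8) or 3 and 4 (SUGP1). The spread in that panel is therefore between guides, and its single sgRenilla libraries add none.

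Exon choice of this kind is a route by which 1 gene makes proteins that differ in a single stretch, as in the tropomyosins, dynamins and fibroblast growth factor receptors. Many classic pairs arose by exon duplication and keep the reading frame. Because only 1 member of the pair is joined to the shared upstream donor, anything that alters recognition of either exon's 3' splice site can move the ratio. SF3B1 and U2AF1 are parts of the machinery that reads the branch point and the 3' splice site, and SRSF2 binds exonic enhancers. All are mutated in myeloid neoplasms. SUGP1 and GPATCH8 carry a G-patch, the short domain through which such proteins work with RNA helicases. SUGP1 is a known partner of SF3B1 that the K700E mutation disrupts.

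The exons of ACTN4, ACSL6 and RAB6A are shown because these are coding near-copies of equal length whose pairs differed by at least 10 points the same way in all 7 GPATCH8 comparisons. They were picked after the values were seen. In all, 8 pairs met that size, and those of SLU7, CLIP1, AFMID and SLC9A8 and a second ACSL6 pair are not shown. Capitals mark the bases that differ between the exons of a pair, read 5′ to 3′ from GENCODE 29 transcripts on GRCh38, where both exons of each pair are coding. In the deposited hg19 coordinates the ACTN4 donor at 39200116 on the plus strand of chromosome 19 is joined to acceptors at 39200897 or 39201916. The ACSL6 donor is at 131312341 on the minus strand of chromosome 5, with acceptors at 131310663 and 131310528. The RAB6A donor is at 73431891 on the minus strand of chromosome 11, with acceptors at 73429935 and 73429763.
ACTN4 upstream exon, chr19:38710257-38710342, plus strand: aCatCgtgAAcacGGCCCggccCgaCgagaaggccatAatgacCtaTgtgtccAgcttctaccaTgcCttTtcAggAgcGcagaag
ACTN4 downstream exon, chr19:38711276-38711361, plus strand: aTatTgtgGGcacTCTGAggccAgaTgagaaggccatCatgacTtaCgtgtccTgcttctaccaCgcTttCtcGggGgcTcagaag
ACSL6 upstream exon, chr5:131974893-131974970, minus strand: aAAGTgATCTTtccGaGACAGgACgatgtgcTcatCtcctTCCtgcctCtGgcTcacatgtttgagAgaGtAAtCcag
ACSL6 downstream exon, chr5:131974758-131974835, minus strand: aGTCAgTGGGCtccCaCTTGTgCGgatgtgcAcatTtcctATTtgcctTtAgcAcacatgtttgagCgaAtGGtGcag
RAB6A upstream exon, chr11:73718785-73718890, minus strand: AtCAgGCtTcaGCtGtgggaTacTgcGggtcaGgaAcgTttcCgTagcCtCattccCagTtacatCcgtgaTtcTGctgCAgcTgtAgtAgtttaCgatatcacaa
RAB6A downstream exon, chr11:73718613-73718718, minus strand: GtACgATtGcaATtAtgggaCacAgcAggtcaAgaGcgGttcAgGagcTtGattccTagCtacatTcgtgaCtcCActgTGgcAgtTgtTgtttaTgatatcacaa
The ACTN4 exons of 86 nt differ at 21 bases (75.6% identity), the ACSL6 exons of 78 nt at 30 bases (61.5%) and the RAB6A exons of 106 nt at 31 bases (70.8%).

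Such near-copies were a small part of the members. Of 6720 pairs, 6297 (93.7%) could be given a gene name, over 3293 names, and both junctions were annotated for 5148 (76.6%). Members are not independent of each other: they started from 4679 donors, and 3028 (45.1%) shared their donor with another member. The distance between the pair's acceptors had a median of 3638 nt, with quartiles of 1224 and 10832 nt. In 3757 members (55.9%) the annotation splices both exons to the same next acceptor. Both exons had a median length of 109 nt. Of these 3757, 1582 (42.1%) had lengths equal modulo 3, so that exchanging the exons keeps the frame, and 115 (3.06%) had equal length. Both exons were coding in 1005, and there 662 (65.9%) were equal modulo 3 and 100 (9.95%) equal in length. Of those 100 pairs, 86 were at least 45% identical, a threshold chosen after the identities were seen. Their acceptors lay closer together, at a median of 884 nt. The junction pair of 3562 members (53%) is listed as a skipped-exon event as well, and those readouts share reads with the members. In such an event the included form holds both exons. Whether shifts in these members were exon exchange or inclusion of the upstream exon was not tested.

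Usage in the control guide was spread over the whole scale. In 293T sgRenilla, 5197 members had a value, of which 875 (16.8%) used the upstream exon at 90% or more, 1127 (21.7%) at 10% or less and 3195 (61.5%) lay between. Over the 7 sgRenilla groups the median was 42.0 to 44.0%, and 60.1 to 64.5% of members lay between these limits. No library gave a value for 502 members, and 4178 had one in every library of all 4 panels. The number tested was 4009 in the SF3B1 panel, 3663 in SRSF2, 3570 in U2AF1 and 3800 in 293T. The other members lacked a value in some library or sat under 5% or over 95% in every group. The reads behind a value are not given, so the depth is unknown. The files hold no gene levels either, so the loss of GPATCH8 and SUGP1 was not checked here.

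**Figure D1:**
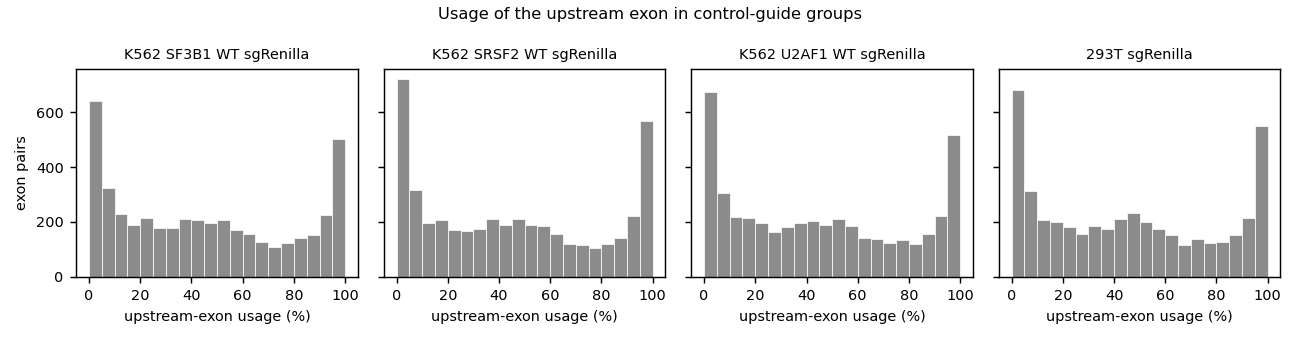
Number of exon pairs (vertical axis) by mean usage of the upstream exon in percent (horizontal axis, bins of 5 points) in the sgRenilla groups of SF3B1 WT, SRSF2 WT, U2AF1 WT and 293T cells. The outermost bins are the tallest, and over 60% of pairs lie between 10 and 90% in each group.

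One group stands apart by sequencing run. In the SF3B1 panel, 51 of 4525 members with a value in every run moved at least 10 points the same way from run 1 to run 2 in all 8 libraries outside K700E sgSUGP1, by a median of 18 to 24 points. In the K700E sgSUGP1 libraries the median shift of those 51 members was 0.0 points in each. Over all event types the count was 694 of 72890, with medians of 23.0 to 27.0 points in the 8 libraries and 0.0 and 1.0 points in K700E sgSUGP1. Results that use the K700E sgSUGP1 libraries are therefore given with run 1 alone or without them.

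After GPATCH8 deletion ACTN4 was the pair called in most settings, 5 of 7. ACTN4 encodes alpha-actinin 4, which crosslinks actin filaments. In 293T cells upstream-exon usage was 93 and 94% with sgRenilla, 53 and 52% with guide 16 and 59 and 57% with guide 17. Usage in SRSF2 WT cells was 84, 86 and 84% with sgRenilla and 62, 62 and 63% with sgGPATCH8, and in SRSF2 P95H cells 82, 82 and 82% and 53, 53 and 52%. The U2AF1 WT libraries gave 81, 81 and 82% and then 52, 57 and 55%, and U2AF1 S34F gave 81, 81 and 81% and then 51, 50 and 48%. In SF3B1 WT cells the value was 95.5% with sgRenilla and 67 and 68% with sgGPATCH8, and in SF3B1 K700E cells 92.5% and then 59.5 and 62.5%. Every sgGPATCH8 library lay below every sgRenilla library of its own genotype, with no overlap. The sgSUGP1 libraries stayed among the controls, at 95.5 and 96% in SF3B1 WT, 93.5 and 94.5% in K700E and 93 to 94% in 293T.

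The fall of ACTN4 passed the test in 5 of the 7 comparisons, which have separate controls. The tests were limma fits across all events of a panel on the log2 ratio of usage to non-usage, with Benjamini-Hochberg adjustment over all tested events. A pair was called at an adjusted p below 0.05 and a difference of at least 5 points. ACTN4 fell by 38.2 points in 293T (log2 effect -3.36, SE 0.23, adjusted p = 0.015). The fall was 22.3 points in SRSF2 WT (-1.68, SE 0.13, adjusted p = 0.0005) and 29.3 points in SRSF2 P95H (-1.98, SE 0.13, adjusted p = 7.8e-05). In U2AF1 WT it was 26.7 points (-1.80, SE 0.21, adjusted p = 0.014) and in U2AF1 S34F 31.3 points (-2.05, SE 0.21, adjusted p = 0.0077). Against the single SF3B1 controls the differences were -28.0 points in WT (adjusted p = 0.076) and -31.5 points in K700E (adjusted p = 0.063), which were not called.

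ACSL6, a ligase that activates long-chain fatty acids for membrane lipids, went the other way, towards its upstream exon, in exons that encode the enzyme's gate region. Usage in 293T was 12 and 13% with sgRenilla, 62 and 54% with guide 16 and 51 and 67% with guide 17. It was 48, 42 and 59% and then 88, 86 and 84% in SRSF2 WT, and 47, 44 and 37% and then 73, 90 and 70% in SRSF2 P95H. These groups did not overlap. ACSL6 rose by 46.0 points in 293T (adjusted p = 0.046), 36.3 points in SRSF2 WT (adjusted p = 0.044) and 35 points in SRSF2 P95H (adjusted p = 0.018). The sgSUGP1 libraries of 293T were at 23, 28, 21 and 41%, all above their controls and below the sgGPATCH8 libraries. In U2AF1 WT the libraries were at 43, 63 and 60% and then 79, 76 and 73%, again without overlap. In U2AF1 S34F they were at 43, 69 and 47% and then 61, 72 and 79%, where the groups overlapped. SF3B1 WT went from 39% to 61.5 and 63.5% and K700E from 20.5% to 77 and 53.5%. The differences in those 4 settings, 17.7 to 44.8 points, were not called.

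RAB6A encodes a GTPase of Golgi transport whose RAB6A and RAB6A′ forms differ by this exon. Its usage in SRSF2 WT was 39, 41 and 40% with sgRenilla and 52, 56 and 55% with sgGPATCH8. In SRSF2 P95H it was 39, 41 and 37% and then 58, 54 and 57%. It rose by 14.3 points in SRSF2 WT (adjusted p = 0.029) and 17.3 points in SRSF2 P95H (adjusted p = 0.0034). In 293T the controls stood at 51 and 54% and the sgGPATCH8 libraries at 65, 65, 65 and 64%, a difference of 12.2 points that was not called (adjusted p = 0.45). Each sgGPATCH8 library was above each control of its genotype in all 4 panels. Skipped-exon readouts share reads with the pair. In SRSF2 WT inclusion of the upstream exon was 79.3% ± 1.5 with sgRenilla and 88.3% ± 2.3 with sgGPATCH8, and inclusion of the downstream exon 91.0% ± 1.7 and 82.7% ± 2.5 (SD, n = 3). The upstream exon was nearer to full inclusion elsewhere, at 94.0% ± 2.6 and then 95% ± 1.7 in U2AF1 S34F (SD, n = 3) and at 91.5% and then a mean of 92.5% in SF3B1 K700E.

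CLASP1 and SLU7 differ from these pairs in structure. CLASP1 stabilises microtubule plus ends, and its coding exons have 48 and 24 nt. In SRSF2 P95H its libraries were at 85, 96 and 90% with sgRenilla and 44, 74 and 54% with sgGPATCH8, and in 293T at 73 and 82% and then 43 and 48% with guide 16 and 28 and 33% with guide 17. The groups did not overlap in either. CLASP1 fell by 33.0 points in SRSF2 P95H (adjusted p = 0.039) and fell by 39.5 points in 293T (adjusted p = 0.046). Most CLASP1 signal at this place skipped the exon. Inclusion of the upstream exon against skipping was 23.7% ± 2.5 in SRSF2 WT sgRenilla and 12% ± 1.0 in sgGPATCH8 (SD, n = 3). Inclusion of the downstream exon against skipping was 0.7% ± 0.6 and then 0.3% ± 0.6 there (SD, n = 3). In 293T the downstream exon was at 3.0% ± 1.4 (SD, n = 2) and then 1.2% ± 0.5 (SD, n = 4), so it did not rise. SLU7, a factor for the second splicing step, has a non-coding exon pair. Its usage in SRSF2 WT was 74, 73 and 69% and then 51, 46 and 47%, and it fell by 24.0 points there (adjusted p = 0.0064) and 26 points in P95H (adjusted p = 0.0013).

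TRA2A, an SR-like activator of exons, had the same direction in all 7 settings but was called in none. Its usage in 293T was 21 and 14% with sgRenilla, 55 and 44% with guide 16 and 46 and 51% with guide 17 (adjusted p = 0.073). SF3B1 WT libraries were at 10.5% and then 39 and 35.5%, and K700E at 35.5% and then 63.5 and 62.5%. The differences ran from 5.0 points in SRSF2 P95H, where the groups overlapped, to 31.5 points in 293T. Most TRA2A signal skipped both exons in 293T, where inclusion of the upstream exon against skipping both was 2.0% ± 0.0 with sgRenilla (SD, n = 2) and 6.8% ± 1.0 with sgGPATCH8 (SD, n = 4).

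**Figure D2:**
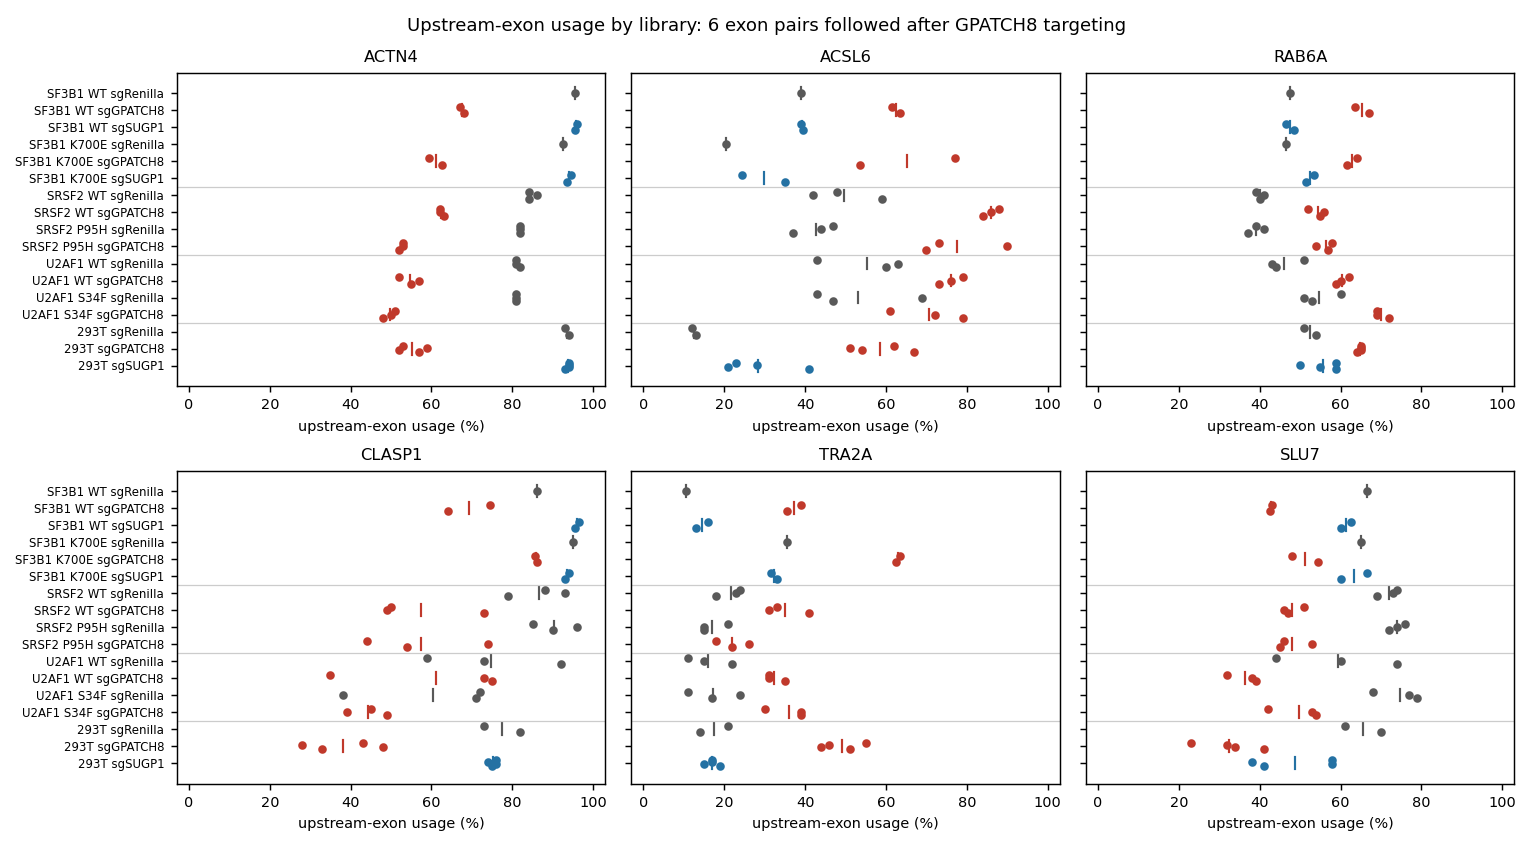
Upstream-exon usage in percent (horizontal axis) of ACTN4, ACSL6, RAB6A, CLASP1, TRA2A and SLU7 in each library (points) and group mean (bars), with sgRenilla in grey, sgGPATCH8 in red and sgSUGP1 in blue. ACTN4 sgGPATCH8 libraries sit between 48 and 68%, and all other ACTN4 libraries at 81% or higher.

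Over all members, a shared direction was about as frequent as among all event types, and no test compared the shares. The 7 GPATCH8 comparisons have separate controls, and 2960 members were tested in all of them. Of these, 122 (4.12%) had the same sign throughout, against 1819 of 32586 (5.58%) of all event types. With at least 5 points in each comparison the count was 18 (0.608%), against 238 (0.73%), and with at least 10 points 8 (0.27%), against 87 (0.267%). Upstream-exon usage rose in 10 of the 18 pairs and fell in 8, which need not mean that the downstream exon gained. The 18 pairs were listed after their values were seen, with 2 each in ACSL6 and AP1G1. Besides those above they lie in UBE2G2, a ubiquitin-conjugating enzyme of the endoplasmic reticulum, EPB41, the red cell membrane skeleton protein 4.1, ATG13 of the autophagy starter complex, the microtubule tip protein CLIP1, the sodium-proton exchanger SLC9A8, and AFMID, DTX2, PHF20 and PIGX. ATG13 differed by -9.0 to -23.3 points, CLIP1 by -10.3 to -26.7 points and EPB41 by 8.5 to 17.3 points, each called in 1 of 7. The AP1G1 pairs were called in none, one at -8.5 to -21.5 points and the other at 7.0 to 21.7 points. They share the exon with the acceptor at 71801788, upstream in the first pair and downstream in the second, so they are not separate responses.

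**Figure D3:**
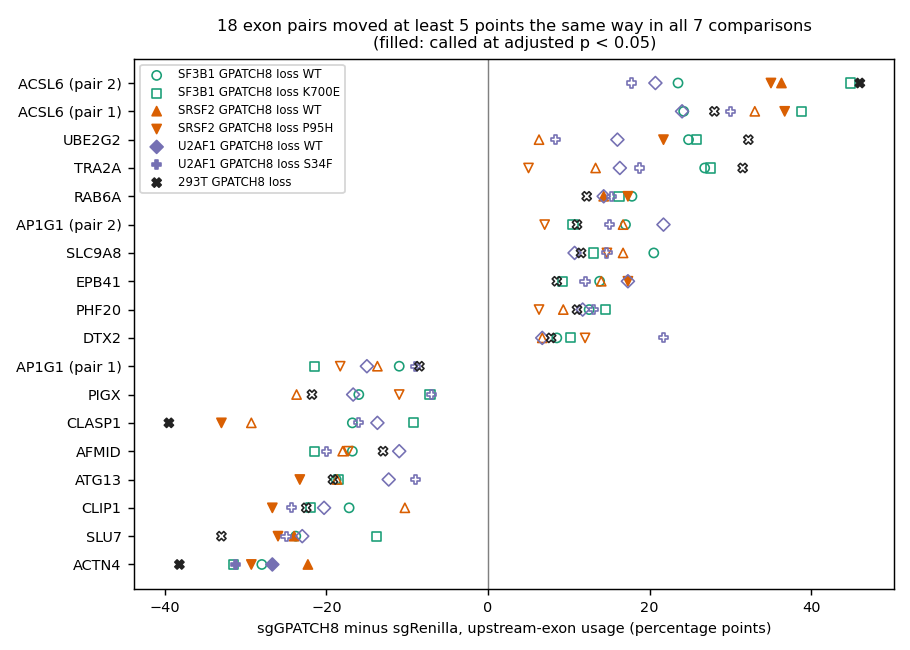
Difference in upstream-exon usage, sgGPATCH8 minus sgRenilla, in percentage points (horizontal axis) for the 18 exon pairs that moved at least 5 points the same way in all 7 comparisons (marker shapes). Filled markers passed the test, ACTN4 in 5 comparisons, ACSL6 (acceptor at 131310663, shown as pair 2) in 3 and most others in 1 or none.

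The number of calls after GPATCH8 deletion differed widely between panels. In SRSF2 P95H cells 143 of 3663 members were called (64 higher, 79 lower, 3.90%), against 4.84% of all events tested. In SRSF2 WT cells 13 were called (5 higher, 8 lower, 0.355%), against 0.491% of all events. In 293T 4 of 3800 were called (0.105%, against 0.0731% of all events), namely ACTN4, ACSL6, CLASP1 and KIF1A. ACTN4 alone was called in U2AF1 WT (0.0322% of all events) and U2AF1 S34F (0.0345%). No member was called in SF3B1 WT (0.0059% of all events, 260 members at an unadjusted p under 0.05) or SF3B1 K700E (0.0138%, 316 members). These panels differ in the number of libraries, and whether the counts differ by more than that was not tested. Leaving out any 1 of the libraries compared left 70 to 89 calls in SRSF2 P95H, 2 to 6 in SRSF2 WT, 0 in 293T and U2AF1 WT and 0 or 1 in U2AF1 S34F.

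KIF1A, a kinesin of axonal transport, was at 98 and 98% in 293T sgRenilla, 91 and 92% with guide 16 and 69 and 75% with guide 17. The guides did not overlap with the controls or each other. It fell by 16.2 points (log2 effect -2.73, SE 0.28, adjusted p = 0.035).

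WARS, the cytosolic tryptophanyl-tRNA synthetase, had a pair in its 5′ region (acceptor at 100841883, chromosome 14, minus strand) at 95, 99 and 96% in P95H sgRenilla and 61, 55 and 61% in P95H sgGPATCH8. It fell by 37.7 points (log2 effect -4.12, SE 0.41, adjusted p = 0.0006). A second WARS pair (acceptor at 100834802) stood at 79, 78 and 78% in SRSF2 WT sgRenilla and 36, 45 and 42% in sgGPATCH8, a fall of 37.3 points (adjusted p = 0.017). In P95H it was at 63, 63 and 60% and then 40, 24 and 17%, a fall of 35 points (adjusted p = 0.0073). Neither pair overlapped between guides in these groups, and both were called in SRSF2 WT too.

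Among the other largest falls in P95H, the citrate synthase gene CS was at 87, 86 and 83% with sgRenilla and 56, 51 and 54% with sgGPATCH8 (adjusted p = 0.011). The RNA helicase MOV10 went from 40, 53 and 51% to 21, 16 and 10% (adjusted p = 0.015). Both sets of libraries were apart. CBWD3 belongs to a family of near-identical copies, so its reads are uncertain, and its values were 33, 45 and 36% and then 3, 4 and 2% (adjusted p = 0.0087). In SRSF2 WT the other called pairs lay in EPS8L2, NAP1L4, SEC16A, and 2 each in CD55 and EPB41L2. EPS8L2, which links receptors to actin, was at 76, 84 and 87% and then 56, 42 and 55%, a fall of 31.3 points (adjusted p = 0.025). In P95H it was at 74, 80 and 79% and then 83, 77 and 86%, where the groups overlapped.

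The SRSF2 WT and P95H comparisons use separate controls. Of the 13 pairs called in WT and 143 in P95H, 9 were called in both, which is 69.2% of the first list and 6.29% of the second. All 9 had the same sign. The matching shares among all event types were not counted, so these are not read as particular to exon pairs. In 98 of the 143 P95H calls both exons are spliced to the same next acceptor, and 41 of those have lengths equal modulo 3, against 40.5% of the tested members with a shared next acceptor. The calls came from 125 donors and 117 genes.

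1 pair was called in a limma test of whether the response to GPATCH8 deletion differed between SRSF2 WT and P95H cells. DIS3 is the exosome's ribonuclease, and its coding exons have 68 and 158 nt. Usage was 32, 30 and 32% in WT sgRenilla and 35, 37 and 35% in WT sgGPATCH8, but 39, 40 and 41% in P95H sgRenilla and 19, 20 and 19% in P95H sgGPATCH8. Guides were apart in both, with opposite directions. The difference between the effects was -25.0 points (log2 -1.71, SE 0.16, adjusted p = 0.0068), in a test that called 0.0614% of all events. In that limma test 376 members were at an unadjusted p under 0.05, so the uncalled pairs are not shown to respond alike. Pairs that missed the threshold included DDX46 (31.7 points, adjusted p = 0.053) and SRP9 (18.3 points, adjusted p = 0.073). No member was called in the same test for K700E (0.0295% of all events, 267 members at an unadjusted p under 0.05) or S34F (0% of all events, 127 members). The lowest adjusted p-values there were GIGYF2 at 23.8 points (adjusted p = 0.08) and DOCK9 at 34.8 points (adjusted p = 0.09), both in K700E. In K700E cells DOCK9 was at 12.5% with sgRenilla and 45 and 44.5% with sgGPATCH8, and GIGYF2 at 7% and then 27.5 and 28%.

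The mutations themselves were compared in turn. For SF3B1 K700E, the effect was averaged over the 3 guide targets (sgRenilla, sgGPATCH8 and sgSUGP1). It called 95 of 4009 members (43 higher, 52 lower, 2.37%), against 3.35% of all events, with a median size of 13.9 points. Those 95 pairs came from 78 donors and 74 genes. The average includes the K700E sgSUGP1 libraries. With run 1 alone 6 members were called, and 13 with run 2 alone. Leaving out any 1 of the 8 sgGPATCH8 and sgSUGP1 libraries left 8 to 23, and without both sgSUGP1 groups 0 of 4021 were called, with 488 at an unadjusted p under 0.05. Of the 95 pairs, 2 were among the 51 that shifted between runs.

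ICA1, the islet cell autoantigen that acts in secretory granule formation, has a pair in non-coding exons (donor at 8268231, chromosome 7, minus strand, hg19). Among WT libraries it was at 3.5% with sgRenilla, 8 and 5.5% with sgGPATCH8 and 33 and 37.5% with sgSUGP1. Among K700E libraries it was at 39.5%, 33 and 31.5%, and 56 and 60.5%. Each K700E value was above the WT values of its guide. Most ICA1 signal skipped both exons: inclusion of the upstream exon against skipping was 1.0% in WT sgRenilla and 14% in K700E sgRenilla, and inclusion of the downstream exon 0 and 1.0%. The usage of the pair's upstream exon rose by 28.2 points with K700E (log2 effect 2.58, SE 0.16, adjusted p = 0.0071). Without the sgSUGP1 groups the difference was 30.8 points (adjusted p = 0.2), and with the sgRenilla libraries alone 36.0 points (adjusted p = 0.081).

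ORAI2, a store-operated calcium channel subunit, was at 4% in WT sgRenilla, 2.5 and 2% in WT sgGPATCH8 and 19 and 23% in WT sgSUGP1. In K700E the values were 22.5%, 18.5 and 19%, and 15.5 and 15.5%. K700E was above WT with sgRenilla and sgGPATCH8. With sgSUGP1 the runs differed: run 1 gave 14 and 14% in WT and 15 and 16% in K700E, and run 2 gave 24 and 32% and then 16 and 15%. The averaged rise was 9.8 points (adjusted p = 0.008), 11 points with run 1 alone (adjusted p = 0.029) and 17.5 points without the sgSUGP1 groups (adjusted p = 0.2).

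ESR1, PACRGL, ANKRD55, GSN and TRA2A each stood on 1 side of WT in K700E cells with every guide. ESR1, the oestrogen receptor alpha gene, was at 84% in WT sgRenilla, 46 and 40% in sgGPATCH8 and 57 and 72% in sgSUGP1, and at 95%, 95.5 and 89%, and 92.5 and 95% in K700E. It rose by 29.8 points (adjusted p = 0.019), and all 5 K700E values were above all WT values. PACRGL was at 83.5%, 82 and 84%, and 62 and 69% in WT and at 53.5%, 56.5 and 55%, and 50 and 46% in K700E. It fell by 24.9 points (adjusted p = 0.011), with no overlap. ANKRD55 fell by 25.7 points (adjusted p = 0.019) and the actin-severing protein gene GSN fell by 23.4 points (adjusted p = 0.017). TRA2A rose by 22.8 points (adjusted p = 0.008). TWF1, C1orf61, PTDSS2 and LY86-AS1 complete the 10 largest. All 11 of these named pairs, ORAI2 included, had the direction of the full average without the sgSUGP1 groups, with adjusted p-values of 0.2 to 0.32. The pairs were picked from the full average, which holds the same sgRenilla and sgGPATCH8 libraries, so the shared direction adds no support.

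With the sgRenilla guide alone, 1 K700E library against 1 WT library, limma called no member (0% of all events), with 397 at an unadjusted p under 0.05.

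For SRSF2 P95H against overexpressed SRSF2 WT, 34 of 3663 members were called (15 higher, 19 lower, 0.928%), against 1.08% of all events. Leaving out any 1 of the 6 libraries left 4 to 9. CYBC1, a chaperone of the phagocyte NADPH oxidase, was at 30, 26 and 24% in WT and 57, 55 and 66% in P95H, a rise of 32.7 points (adjusted p = 0.016). IP6K2, an inositol phosphate kinase, was at 37, 35 and 45% and then 67, 64 and 79% (adjusted p = 0.028). Both pairs moved towards the upstream exon without overlap. CTSB, the lysosomal protease cathepsin B, had 2 pairs that went the other way, at 63, 60 and 59% and then 30, 35 and 34% (adjusted p = 0.014), and at 86, 83 and 89% and then 62, 62 and 67% (adjusted p = 0.01). RFC5, a subunit of the sliding clamp loader, went from 33, 40 and 42% to 19, 15 and 19% (adjusted p = 0.014). CNOT1, the scaffold of the CCR4-NOT deadenylase, was at 68, 78 and 74% and then 41, 51 and 50% (adjusted p = 0.043). YPEL5 fell by 26 points (adjusted p = 0.02) and the sialyltransferase gene ST3GAL3 by 23.3 points (adjusted p = 0.038). In each of these pairs the libraries of WT and P95H did not overlap, but they were picked as large called differences, so this adds no support. NPIPB5 and CBWD3, both from families of near-identical copies, completed the 10 largest.

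U2AF1 S34F called no member by limma (0.0023% of all events), with 309 at an unadjusted p under 0.05. That fit took no account of replicate numbers, although each of the 12 libraries correlated best with its own number. With the number as a block limma did call members, as given in the last paragraph. The pairs with the lowest p were the synaptic scaffold genes DLGAP4, at 4, 2 and 3% in WT and 16, 12 and 19% in S34F (adjusted p = 0.12), and DLG1, at 40, 39 and 45% and then 61, 68 and 66% (adjusted p = 0.12). CNOT2, a CCR4-NOT subunit, was at 71, 56 and 44% and then 23, 10 and 7% (adjusted p = 0.12). None of the 3 overlapped between groups, but they were picked by low p, so this adds no support.

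Deleting SUGP1 gave a single call, which rests on 1 sequencing run. SLBP binds the stem-loop of histone mRNAs, and in K700E cells its pair was at 23.5% with sgRenilla and 6 and 5.5% with sgSUGP1 (-17.8 points, adjusted p = 0.046, 0.0944% of all events called). In run 1 the values were 7% and then 7 and 6%, and in run 2 40% and then 5 and 5%. Run 2 of the other 7 SF3B1 libraries was at 28 to 37%, and their run 1 at 7 to 9%. With run 1 alone the difference was -0.5 points (adjusted p = 0.97). CSF1, the macrophage growth factor, showed the same split, at 10% and then 6 and 6% in run 1 and 41% and then 4 and 6% in run 2. In this comparison 49 members were called with run 2 alone and 0 with run 1 alone. SLBP is among the 51 members with the run shift described above.

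Outside K700E cells limma called no member after SUGP1 deletion, in K562 WT (0.0197% of all events, 251 members at an unadjusted p under 0.05) or in 293T (0.0452%, 213 members). ICA1 had the lowest adjusted p in both. In 293T it was at 7 and 5% with sgRenilla, 48 and 41% with guide 3 and 55 and 57% with guide 4 (44.2 points, adjusted p = 0.08). In K562 WT it went from 3.5% to 33 and 37.5% (31.8 points, adjusted p = 0.061). ORAI2 went from 5 and 7% to 23, 35, 32 and 20% in 293T (21.5 points, adjusted p = 0.17) and from 4% to 19 and 23% in K562 WT (17 points, adjusted p = 0.066). COL11A2, a collagen chain gene, was at 20% and then 57.5 and 55% in K562 WT (adjusted p = 0.12). These sgSUGP1 libraries were all above their controls. The K562 WT control is a single library, which the K700E comparisons use as well. Over the 3279 members tested in both cell lines, 1645 (50.2%) had the same sign and 51 (1.56%) had it with at least 10 points in both, against 51.5% and 2.22% of all 38406 events.

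**Figure D4:**
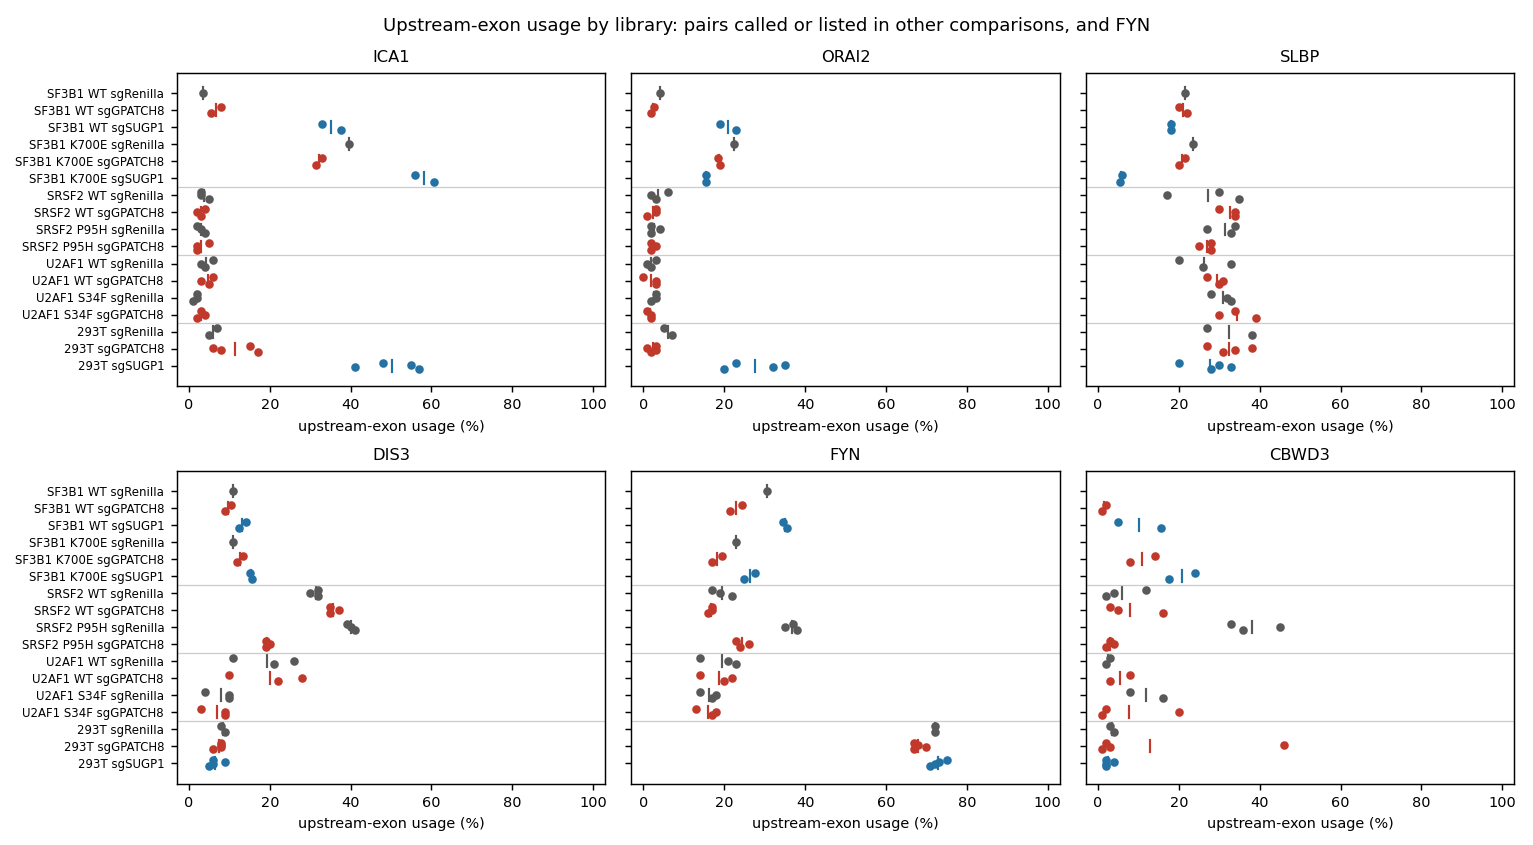
Upstream-exon usage in percent (horizontal axis) of ICA1, ORAI2, SLBP, DIS3, FYN and CBWD3 in each library (points) and group mean (bars), with sgRenilla in grey, sgGPATCH8 in red and sgSUGP1 in blue. ICA1 and ORAI2 lie to the right in sgSUGP1 and K700E groups, DIS3 in the SRSF2 panel is lowest in P95H sgGPATCH8, and SLBP is low in K700E sgSUGP1, where the runs disagree.

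A list of 50 genes known from textbooks for mutually exclusive exons served to describe the classic pairs. Of these, 48 had a member, 89 members in all, and 68 members in 37 genes had a value in every library of some panel. In 21 of those the control groups sat at one end, 10 under 10% and 11 over 90%. PKM, the muscle and cancer pyruvate kinase, had control means of 2.5 to 6.3%, SLC25A3, the mitochondrial phosphate carrier, 0 to 1.0%, and the stress kinase gene MAPK9 0 to 1.0%. ACTN1 at 99.7 to 100%, the ketohexokinase gene KHK at 98.0 to 100% and TPM3 at 99.0 to 100% were at the other end. The other 47 members, in 30 genes, lay between 10 and 90% in some control group. Among them were the tropomyosin genes TPM1 (30.5 to 39.0% for the pair nearest the middle) and TPM2 (37.0 to 58.3%), the prolyl hydroxylase subunits P4HA1 (23.3 to 38.3%) and P4HA2 (45 to 70.0%), the p38 kinase gene MAPK14 (67.5 to 81.0%), DNM2 (59.5 to 80.0%) and the transcription factor gene MEF2D (31.0 to 44.7%).

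The remaining classic pairs differed in how evenly they were used across the 7 control groups. Among receptors, FGFR3, whose IIIb and IIIc forms bind different growth factors, had control means of 5.7 to 32.0%, and the muscle integrin gene ITGA7 11.5 to 27.0%. Of signalling genes, GNAO1, a G-protein alpha subunit, lay at 59.0 to 85.0%. The calcium-binding gene CALU had 75 to 92.0%, and 1 of the 4 pairs of the sarcomere gene NEB had 22.5 to 43.7%. The transcription factor genes MEF2A, at 89.0 to 93.7% for one of its pairs, and MEF2C, at 88.0 to 94.3%, stood near the top of the scale, as did the other MEF2D pair, at 95.5 to 99.7%. The sodium channel gene SCN9A was at 74.5 to 98.3%. For 21 of the 89 textbook members no panel had a value in every library, glutamate receptor and glycine receptor genes of neurons among them.

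Of the 52 textbook members tested, 9 were called in some comparison. The share of all events called in some comparison was not counted, so this count is not read as high or low. GPATCH8 deletion in SRSF2 P95H called 8 of 36, where 4.84% of all events were called, and no test compared this list with the others. OGDH, the oxoglutarate dehydrogenase subunit, had 2 called pairs, at 26, 28 and 18% with sgRenilla and 45, 41 and 47% with sgGPATCH8 (adjusted p = 0.0097), and at 23, 27 and 28% and then 41, 48 and 48% (adjusted p = 0.0039). H2AFY, whose macroH2A1 forms differ by this exon, was at 92, 93 and 92% and then 99, 99 and 99% (adjusted p = 8.5e-05). DNM1, the endocytic dynamin, was at 94, 96 and 94% and then 83, 86 and 73% (adjusted p = 0.012). These libraries did not overlap between guides. A TPM1 pair other than the one described above rose by 8.3 points (adjusted p = 0.022). Its donor is at 63349317 on chromosome 15, and its control means were 86.3 to 96.0%. The splicing factor gene U2AF1, whose forms differ by this 67-nt pair, was at 32, 32 and 34% and then 25, 26 and 26% (adjusted p = 0.036).

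FYN, a Src-family kinase with FynB and FynT forms set by its kinase-domain exon pair, was called both with P95H and with GPATCH8 deletion in P95H. It was at 17, 19 and 22% in SRSF2 WT sgRenilla, 37, 35 and 38% in P95H sgRenilla and 23, 26 and 24% in P95H sgGPATCH8. The differences of 17.3 points (adjusted p = 0.0069) and -12.3 points (adjusted p = 0.011) share the P95H sgRenilla libraries and are not independent. ATE1, the arginyltransferase, fell with P95H from 54, 57 and 54% to 36, 41 and 39% (adjusted p = 0.025). In the SF3B1 panel limma called none of 35 textbook members in the 7 comparisons, where it called 0 to 3.35% of all events, so that this count is near the background.

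Between the cell lines the control values were close for most members. Over 4476 members with values in the 4 WT or 293T sgRenilla groups, the median distance of 293T from the K562 mean was 2.9 points. From the lowest to the highest K562 panel the median range was 4.7 points. A range and a distance from a mean are unlike measures and are not compared here. A distance of at least 20 points was seen for 263 members (5.88%), 150 higher and 113 lower in 293T, and of at least 40 points for 40. These are separate tables, so no test was made. WARS pairs gave 4 of the 5 widest distances and share exons, the first at 1.3 to 13.5% in K562 and 90% in 293T. The erythroid blood-group gene ERMAP was at 15.5 to 36.7% in K562 and 96.5% in 293T. SEPT6 was at 68.0 to 81.0% and 14.5%, and FYN at 19.3 to 30.5% and 72.0%. At the centre of the scale, MARS stayed at 48.7 to 51.3% and RAP1B at 49.5 to 51.5% in all 4 groups.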

How the data were processed

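The members and lists were chosen with earlier results of these data known. Polyadenylated RNA was sequenced from strand-specific dUTP libraries as paired ends, per the labels' protocols. The 4 tables deposited by the authors give each event's usage as a fraction (rounded to 2 decimals), a unit taken from the values themselves. Per the submitters' processing notes, RSEM 1.2.4, TopHat2 2.0.8b, TopHat and Bowtie were used with hg19, and the role of each is not given in the sources used here. Depth is unknown, and rounding to whole percent limits precision near both ends.

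54 columns gave 44 libraries, since runs of a SF3B1 library were averaged. A single column stood for both runs of replicate 3 of SRSF2 P95H sgGPATCH8. Events with a value in every library, a group mean of at least 5% in some group and of at most 95% in some group were fitted per panel over all event types. The fit used limma 3.58.1 (R 4.3.3) on log2((f + 0.01)/(1 − f + 0.01)) with a trended prior variance and Benjamini-Hochberg adjustment. All groups of a panel entered, so single SF3B1 controls borrow the spread of the other groups, which lies between guides against the same target. Differences are of group means in percentage points. Pipelines were tested on simulated data.

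Genes were named by matching intron lengths and their local order to GENCODE 29 (GRCh38), with no conversion of coordinates. Named pairs were the 10 largest calls of a comparison, up to 3 further pairs by p where fewer than 3 were called, members of the textbook genes, the 5 widest cell-line distances, and the 5 closest to 50%. The pairs followed across panels (the 6 in the plot of GPATCH8 pairs, ICA1 and ORAI2) were chosen after their values were seen. Where the libraries of called or followed pairs did not overlap, this describes the values they were picked by and adds no support. Alternatives changed the offset, the filters, the scale, the minimum difference, the run, the block and each library, and an average without sgSUGP1 was added after seeing the data.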

Additional observations from a re-analysis of the deposited data

Results flagged for a closer look

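The DIS3 pair differed in its response to GPATCH8 deletion between SRSF2 WT and P95H cells, by -25.0 points in a limma test of the difference itself (adjusted p = 0.0068). In 293T sgSUGP1, ACTN4 had 1 library apart from the rest, at 93.0% against 94.0, 94.0 and 94.0%, a ratio of gap to range of 1.0. In 293T sgGPATCH8, RAB6A had 1 library at 64.0% against 65.0, 65.0 and 65.0%, again a ratio of 1.0. Both of the last differ by a single step of the values, which are given to whole percent.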

How the results depend on the processing

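Leaving out each library in turn gave 8 to 23 calls for K700E averaged (95 in full), 4 to 9 for P95H (34), 2 to 6 for GPATCH8 loss in SRSF2 WT (13), 70 to 89 in P95H (143), 1 to 2 for the P95H interaction (1), 0 for SUGP1 loss in K700E (1), GPATCH8 loss in U2AF1 WT (1) and 293T (4), and 0 to 1 in U2AF1 S34F (1). The counts of 0 stayed 0. The single SF3B1 sgRenilla libraries could not be left out. With an offset of 0.05 the calls were 4 for GPATCH8 loss in K700E, 3 for SUGP1 loss in K700E, 3 for the P95H interaction, 2 for GPATCH8 loss in S34F and 1 for 293T SUGP1 loss. With no filter on group means they were 5 for K700E with sgRenilla, 4 and 5 for GPATCH8 loss in SF3B1 WT and K700E, 2 and 9 for SUGP1 loss in the same cells, 3 for the K700E interaction, 10 for the P95H interaction, 3 for S34F, 8 for 293T GPATCH8 loss and 1 for 293T SUGP1 loss. With 1 missing library allowed, SUGP1 loss in K700E gave 0 and 293T GPATCH8 loss 2. On untransformed fractions the calls were 2 for K700E with sgRenilla, 2 and 4 for GPATCH8 loss in SF3B1 WT and K700E, 1 and 3 for SUGP1 loss, 4 for the K700E interaction, 9 for the P95H interaction, 2 for GPATCH8 loss in S34F and 1 for 293T SUGP1 loss. A minimum of 10 points left 63 calls for K700E averaged. Run 1 alone gave 6 for K700E averaged and 0 for SUGP1 loss in K700E, and run 2 alone 13, 49, and 5 for the K700E interaction. Without both sgSUGP1 groups, an alternative chosen after seeing the data, K700E averaged gave 0. No result reversed. Of the alternatives for named pairs, 1039 kept the call or its absence with the same direction, 269 lost it and 48 gained it. Apart from the fewer samples of the settings that leave libraries out, the cause was not tested.

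The labels do not say what a shared replicate number marks, and the main fit did not pair on it. Deviations of same-numbered libraries correlated at 0 to 0.02 in SF3B1, -0.05 to 0.04 in SRSF2, 0.07 to 0.40 in U2AF1 and -0.03 to 0.01 in 293T. For different numbers the range was -0.24 to 0.13 in U2AF1. Only in U2AF1 did the medians differ, at 0.14 for the same number and -0.15 for different numbers. Each library correlated best with its own number in 12 of 12 U2AF1 and 5 of 12 SRSF2 libraries. With the replicate number as a block the calls were 8 for P95H, 6 for GPATCH8 loss in SRSF2 WT, 0 for the P95H interaction, 2 for S34F, 2 for GPATCH8 loss in S34F, 0 for 293T GPATCH8 loss and 0 for SUGP1 loss in K700E. With the guide as a block K700E averaged gave 44, of which 32 were among the 95.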
